A study of Caenorhabditis elegans with 2 samples.

Results

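The cuticle collagen genes of Caenorhabditis elegans were taken as every protein-coding gene whose symbol begins with col- together with 10 named genes in which mutations alter body shape or raise blisters (bli-1, bli-2, dpy-2, dpy-7, dpy-10, dpy-13, dpy-17, rol-6, sqt-1 and sqt-3). The rule gave 166 genes, 156 of them by the col- symbol, of 19973 protein-coding genes on the 6 nuclear chromosomes. They were examined for sites of HMG-1.1, a high mobility group box protein, in chromatin immunoprecipitation with sequencing of whole L4 larvae. The worms were strain RW12311, in which TY1::EGFP::3xFLAG had been inserted at hmg-1.1 by CRISPR. They were synchronised as starved L1 larvae after bleaching and were given as 48 hours old. Both biological replicates carried the tag and were precipitated with an anti-GFP antibody, and there was no second condition. The labels name a control experiment, which was not analysed here. Because the larvae were whole, the epidermis that makes cuticle collagen supplied only a share of the chromatin, and binding in few cells cannot be told apart from weak binding in many.

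Cuticle collagens are secreted by the epidermis, which builds a new cuticle at each moult. Their defining repeat is Gly-X-Y. After the chains are hydroxylated inside the cell, 3 of them wind into a triple helix, which is later trimmed and crosslinked. Different collagens form the circumferential furrows, the alae or the struts, and many are transcribed in a short pulse before a moult. High mobility group box proteins, which are plentiful in chromatin, bend the DNA they bind and have little sequence preference.

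The label was checked against the encoded proteins. At least 20 Gly-X-Y triplets, in runs of at least 3, were found in 165 of 166 collagen genes (99.4%), against 226 of all 19973 genes (1.13%). The median collagen gene encoded 51.0 triplets, and col-135 had the most with 198. In col-17 the annotated reading frame held 0. The rule also took in col-99, a transmembrane collagen, with 132 triplets in 18 coding exons.

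The sequences under the summits that carry the results come first, on the ce11 assembly, with positions counted from 1. A summit is the single base that the authors' file marks as the top of a peak. In the first 3 sequences, read on the strand of the RNA gene, capitals mark an annotated tRNA gene: a tRNA-Ile gene inside an intron of col-85, a tRNA-Lys gene beyond the 3' end of col-181 and a tRNA-Pro gene upstream of col-185. The col-72 sequence, on the strand of the gene, is its whole peak, and capitals mark the 5 bases centred on the summit. It was the strongest peak near any collagen gene with no other annotated start within 500 bp, piRNA genes aside. In the col-119 and col-129 sequences, on the strand of each gene, capitals mark the start codon of the collagen itself.
col-85, chrII:12494623-12494880, plus strand: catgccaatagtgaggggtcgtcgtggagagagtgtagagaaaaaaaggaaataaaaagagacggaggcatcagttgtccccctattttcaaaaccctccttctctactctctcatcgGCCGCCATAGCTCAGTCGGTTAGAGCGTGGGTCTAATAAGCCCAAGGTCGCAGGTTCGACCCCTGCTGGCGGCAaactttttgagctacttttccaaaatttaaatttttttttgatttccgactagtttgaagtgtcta
col-181, chrX:12106103-12106349, minus strand: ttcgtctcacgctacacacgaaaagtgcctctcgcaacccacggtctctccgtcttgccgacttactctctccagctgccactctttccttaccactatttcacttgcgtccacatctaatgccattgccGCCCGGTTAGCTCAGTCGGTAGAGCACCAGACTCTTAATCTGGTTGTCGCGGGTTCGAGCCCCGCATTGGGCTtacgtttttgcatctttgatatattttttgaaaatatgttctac
col-185, chrX:13511889-13512095, minus strand: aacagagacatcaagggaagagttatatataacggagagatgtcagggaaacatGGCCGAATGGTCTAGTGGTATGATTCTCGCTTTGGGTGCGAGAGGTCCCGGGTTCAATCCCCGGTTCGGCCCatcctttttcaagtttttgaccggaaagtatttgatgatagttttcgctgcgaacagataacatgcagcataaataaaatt
col-72, chrII:3523642-3523798, minus strand: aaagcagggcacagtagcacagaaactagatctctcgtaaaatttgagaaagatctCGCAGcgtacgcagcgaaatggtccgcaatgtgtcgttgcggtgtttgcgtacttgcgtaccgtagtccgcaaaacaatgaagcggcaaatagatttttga
col-119, chrIV:8979599-8979798, minus strand: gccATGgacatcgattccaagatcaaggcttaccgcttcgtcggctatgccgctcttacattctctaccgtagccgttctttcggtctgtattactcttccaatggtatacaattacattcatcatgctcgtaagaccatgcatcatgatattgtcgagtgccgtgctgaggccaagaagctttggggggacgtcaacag
col-129, chrIV:12110077-12110245, minus strand: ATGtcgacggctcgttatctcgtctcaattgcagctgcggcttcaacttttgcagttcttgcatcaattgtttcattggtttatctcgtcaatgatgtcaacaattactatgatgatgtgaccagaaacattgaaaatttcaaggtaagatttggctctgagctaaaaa

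RNA polymerase III, which transcribes tRNA genes from promoter boxes inside the gene, stops at runs of T. In the 12 bases after the tRNA gene, the longest run of T was 5 bases beside col-85, 5 beside col-181 and 5 beside col-185. GGTTCGA, the core of the internal promoter element called the B box, was searched on both strands. It was found in 395 of 612 annotated tRNA genes (64.5%) and in 344 of the 4277 peaks of the main list (8.04%). The exact word was present in the printed sequences of col-85 and col-181 and absent from the other 4. Variants were not searched, and the tRNA gene printed for col-185 holds GGTTCAA. The sequences printed for col-181, col-119 and col-129 are only parts of their peaks. Among windows of 300 bases centred on gene starts GGTTCGA occurred at 3 of 166 collagen genes (1.81%), against 322 of all genes (1.61%).

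The main list was the authors' conservative list for both replicates, thresholded on the irreproducible discovery rate (IDR), a measure of how well peak ranks repeat. The start of a gene was the 5'-most base of its annotation, and a summit within 500 bp in either direction was counted. Of the collagen genes, 5 had such a summit (3.01%, 95% Wilson interval 1.29 to 6.86%), against 1954 of all protein-coding genes (9.78%). Within 2000 bp there were 16 collagen genes (9.64%, interval 6.02 to 15.1%), against 3664 of all genes (18.3%). Both intervals lie below the share of all genes. They cover counting error over genes only, and no test of a condition was possible with 1 group.

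Each summit was also given to 1 start. Only 4 collagen genes were the nearest protein-coding start to a summit within 500 bp (2.41%), against 7.98% of all protein-coding genes. With starts of non-coding genes other than piRNA genes allowed to compete, 3 collagen genes were left (1.81%), against 6.93% of all. The piRNA genes were also left out wherever other starts near a summit are described below. The 3 collagen genes left were col-72, col-119 and col-129.

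The share was lower for collagen genes in each list. The other thresholded list for both replicates placed a summit within 500 bp of 6 collagen genes (3.61%), against 9.92% of all genes. The replicate 1 list did so for 3 (1.81%), against 6.06% of all genes. The replicate 2 list did so for 5 (3.01%), against 7.30% of all genes. The interval in replicate 2 ended at 6.86% and in replicate 1 at 5.18%, so both lay below the share of all genes. The genes differed in part between lists: col-85, col-72 and col-38 were in all 4 lists, and 7 other collagen genes were in 1 list each.

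**Figure D1:**
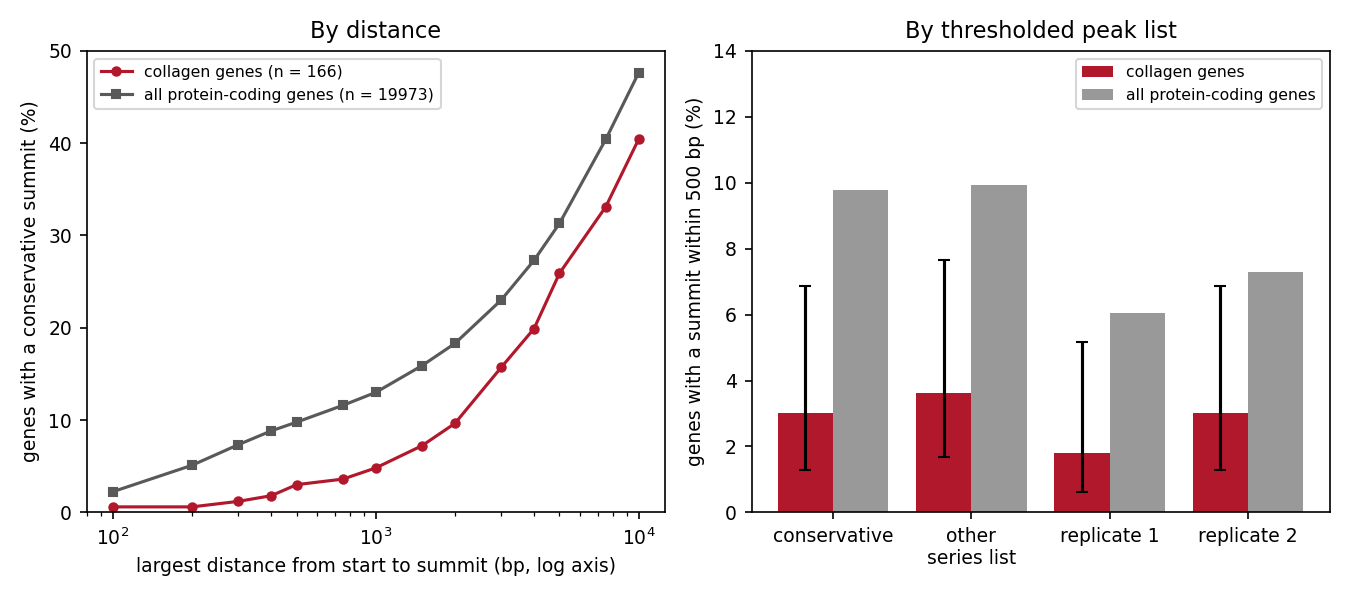
Share of genes with a summit of HMG-1.1 for the 166 collagen genes (red) and for all 19973 protein-coding genes (grey). The left panel plots the share against the largest distance allowed from the start in bp on a log axis, in the conservative list. The right panel gives the share within 500 bp in 4 thresholded lists, where error bars are 95% Wilson intervals for the collagen genes. Collagen genes lie below all genes at every distance drawn, with 3.01% against 9.78% at 500 bp and 40.4% against 47.6% at 10000 bp, and in each list.

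The share was also lower at shorter and longer distances. Within 200 bp lay a summit for 1 collagen gene (0.602%), against 5.11% of all genes. Within 5000 bp there were 43 collagen genes (25.9%), against 31.3% of all genes. The median distance to the nearest summit was 14452 bp for collagen genes, against 10894 bp for all genes. More than 10000 bp separated 99 collagen genes (59.6%) from any summit, against 52.4% of all genes. No interval was computed at 200, 5000 or 10000 bp or for the median distance, so these differences are not set against counting error.

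The side of the start differed as well. Of the 5 collagen genes with a summit within 500 bp, 1 had its nearest summit upstream and 4 downstream, that is inside the gene. Of the 1954 genes with one among all genes, 86.0% had it upstream, with a median position of -173 bp. Within 2000 bp the upstream share was 6 of 16 for collagen genes (37.5%), against 79.3% of 3664 genes. All 5 genes lay on 2 chromosomes, 3 of the 30 collagen genes on chromosome II and 2 of the 42 on chromosome IV. The 21 on chromosome I, 13 on III, 32 on V and 28 on X had none. Over all genes, chromosome I had the highest share (14.1%) and V the lowest (6.09%). With only 5 collagen genes counted, nothing is read from the chromosomes without one.

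The 5 summits within 500 bp had signals from 75.0 to 472 with a median of 192, against a median of 121 over the 1670 summits within 500 bp of any protein-coding start. Signal is the authors' value per peak on a scale that is not stated, and it is compared only within a list. The 5 fell apart into 3 strong peaks found in both replicates and 2 weak ones found in neither replicate's own thresholded list.

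The col-85 peak (chrII:12494623-12494880) had a signal of 208 in replicate 1, where it ranked 100 of 2613 peaks, and of 269.5 in replicate 2, where it ranked 75 of 3082. In the conservative list its signal was 472 and its rank 85 of 4277, the strongest within 500 bp of a collagen gene. Its summit lay 349 bp inside col-85, in an intron, and 5 bp into the tRNA-Ile gene T21B4.t1 on the opposite strand. The non-coding RNA genes T21B4.19 and T21B4.18 also start within 500 bp of it. Which of these transcripts the binding belongs to was not tested.

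The col-72 peak (chrII:3523642-3523798) had a signal of 104 in replicate 1, at rank 681, and of 136 in replicate 2, at rank 549. Its signal in the conservative list was 247, at rank 570. The summit lay in an intron of col-72, 457 bp from the start, and no other annotated start was within 500 bp, piRNA genes aside. It was the only collagen gene that both had a summit within 500 bp in all 4 thresholded lists and was the nearest start to it.

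The col-38 peak (chrII:8569332-8569707) had a signal of 85.6 in replicate 1, at rank 979, and of 103 in replicate 2, at rank 975. Its signal in the conservative list was 192, at rank 910. This was the only one of the 5 upstream of its gene, at -432 bp. It lay between col-38 and the oppositely oriented rpl-5, which encodes a ribosomal protein of the large subunit and whose start is nearer to the summit, at -407 bp. The summit was within exons of the non-coding RNA genes F54C9.16 and F54C9.17, and F54C9.15 starts 379 bp away.

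The col-119 summit lay in the coding exon, 96 bp from the start and inside an intron of pdzd-8. Its signal was 81.7 in the conservative list, at rank 3132. In the unthresholded, ranked lists it had a signal of 43.3 in replicate 1, with a score of 675, and of 31.8 in replicate 2, with a score of 101. The score is the authors' scaled IDR, and the thresholded lists begin at 830, so both replicates fell short of it. The col-129 summit lay in the first coding exon, 212 bp from the start, with a signal of 75.0 at rank 3463. Its ranked signals were 39.7 in replicate 1, with a score of 171, and 34.4 in replicate 2, with a score of 65. Both were missing from the other thresholded list. In the ranked list from which that one was drawn, the same peaks had scores of 711 for col-119 and 117 for col-129.

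**Figure D2:**
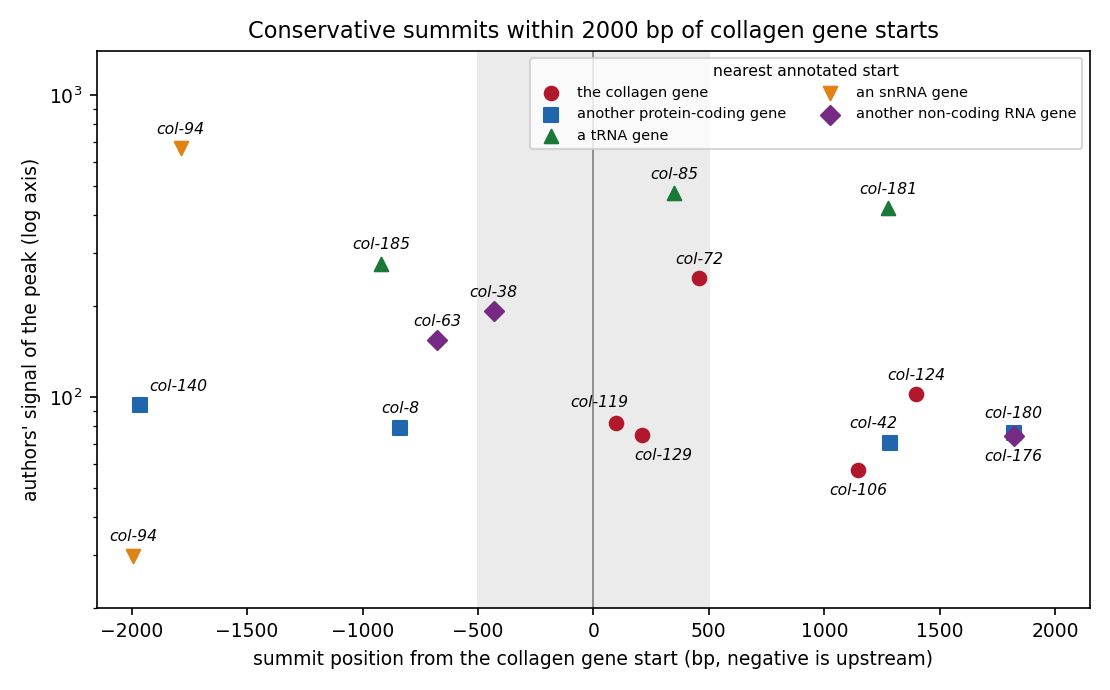
Each point is 1 summit of the conservative list within 2000 bp of a collagen gene start, with its position from that start in bp on the horizontal axis and the authors' signal on a logarithmic vertical axis. Colour and shape give the kind of gene whose start is nearest to the summit, and the shaded band is the 500 bp on either side. The 3 summits nearest to tRNA genes have signals from 276 to 472, and the 5 nearest to the collagen gene itself from 57.3 to 247.

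Widening the distance to 2000 bp added 11 collagen genes with 12 summits, at signals from 29.7 to 666. For 2 of them the collagen gene was the nearest start. The col-124 summit lay at +1397 bp, past the end of the gene and in a coding exon of qns-1, with a signal of 102. Its replicate 1 signal was 57.3, above the threshold, and its replicate 2 signal was 38.1 in the ranked list, with a score of 429. The col-106 summit at +1148 bp, beyond the gene, had a signal of 57.3 and a q-value above 0.05. Its ranked signals were 34.7 in replicate 1 and 33.1 in replicate 2, both under the threshold.

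The strongest summits of this outer ring lay at RNA genes. The col-94 summit, at -1787 bp in an intron of the dynein heavy chain gene dhc-4, had a signal of 292 in replicate 1, of 362 in replicate 2 and of 666 in the conservative list, where it ranked 38. It lay 19 bp before the snRNA gene W05B2.8. A second summit at -1993 bp in an overlapping interval had a signal of 29.7 and a q-value above 0.05. The col-181 summit at +1278 bp had a signal of 224 in replicate 1, of 202 in replicate 2 and of 421 in the conservative list, and lay 11 bp into the tRNA-Lys gene. The col-185 summit at -918 bp had a signal of 127 in replicate 1, of 143 in replicate 2 and of 276 in the conservative list, and lay 26 bp into the tRNA-Pro gene. The col-63 summit at -678 bp, in the 3' UTR of the homeobox gene ceh-8, had a signal of 86.6 in replicate 1, of 62.9 in replicate 2 and of 154 in the conservative list. The non-coding RNA gene ZK265.11 starts 19 bp from it.

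Of the other 5 collagen genes in the ring, 4 shared their summit with a nearer protein-coding start. The col-140 summit (93.6) lay 183 bp before F26F12.2. The col-8 summit (79.0) lay 231 bp inside rfl-1, which encodes a subunit of the enzyme that activates NEDD8. The col-180 summit (76.0) lay 116 bp before C44C10.11. The col-42 summit (70.3), with a q-value above 0.05, lay 535 bp from the start of egas-1. The col-176 summit (74.2) was nearest to the non-coding RNA gene ZC373.8, 1354 bp away.

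Over all 17 summits within 2000 bp, piRNA genes aside, the nearest start was the collagen gene for 5 and another protein-coding gene for 4. It was a tRNA gene for 3, an snRNA gene for 2 and another non-coding RNA gene for 3. In both replicates' own lists a summit within 150 bp was found for 7 of the 17 (41.2%), against 1378 of the 2880 conservative summits within 2000 bp of any protein-coding start (47.8%). Neither replicate's list held one for 7 of the 17 (41.2%), against 29.5% of the 2880. Of the 7 found in both, 3 were nearest to tRNA genes, 1 to the snRNA gene, 2 to other non-coding RNA genes and 1 to the collagen gene, col-72.

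**Figure D3:**
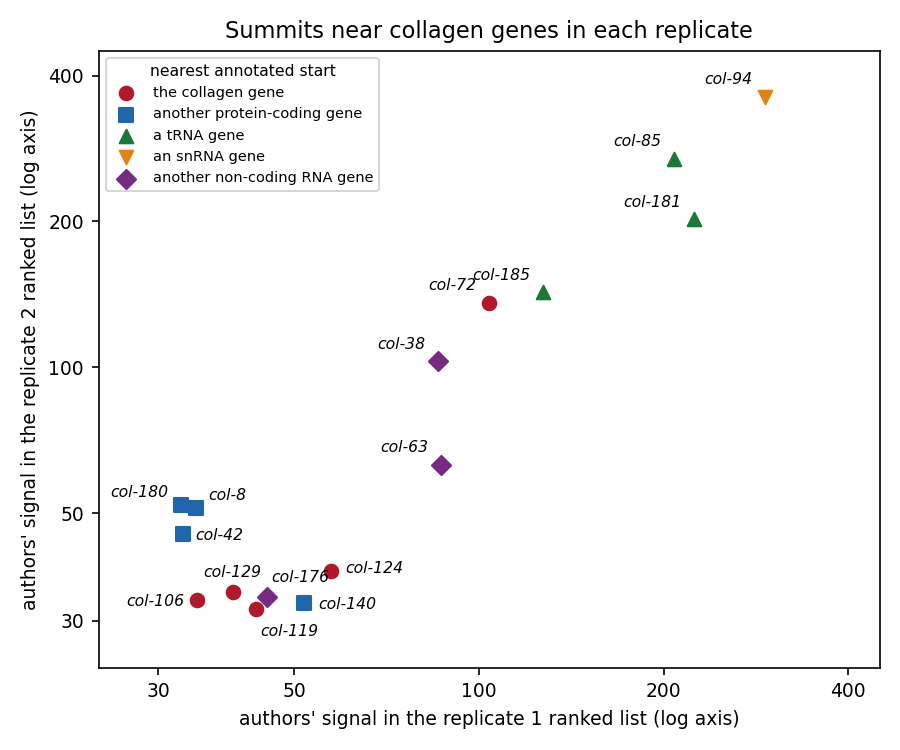
Signal of 16 summits near collagen genes in the replicate 1 ranked list (horizontal) and in the replicate 2 ranked list (vertical), both on log axes, with colour and shape as the kind of nearest start. The second col-94 summit has no value in either list and is not drawn. Summits at tRNA and snRNA genes have signals of at least 127 in replicate 1 and 143 in replicate 2, and the other protein-coding neighbours lie at 51.9 or less in both.

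Annotated tRNA genes were common HMG-1.1 sites, since 343 of 612 (56.0%) had a conservative summit within 200 bp of their start, as did 23 of 129 snRNA genes (17.8%) and 88 of 346 snoRNA genes (25.4%). A tRNA start lay within 2000 bp of 4 collagen genes, and at 3 of them (col-85, col-181 and col-185) that tRNA gene had a summit. Over all protein-coding genes, 1.70% had a tRNA start within 2000 bp. With summits at tRNA genes left out, 4 collagen genes had one within 500 bp (2.41%), against 9.56% of all genes, and 13 within 2000 bp (7.83%), against 17.5%. With summits at tRNA, snRNA and snoRNA genes left out, which removed 5 of the 17, there were 4 within 500 bp (2.41%), against 9.43% of all genes, and 12 within 2000 bp (7.23%), against 17.0%.

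Several collagen genes had a summit within 500 bp in 1 of the other lists only. In the other list for both replicates, col-71 had one at -234 bp with a signal of 90.0, nearer to the oppositely oriented Y49F6B.2. That list also held col-122 at +381 bp with a signal of 80.6, in its coding exon. The third was col-19, a collagen of the adult cuticle, at +168 bp in its intron with a signal of 69.1. In the ranked lists the col-19 peak had a signal of 47.0 in replicate 1, with a score of 626, and of 23.3 in replicate 2, with a score of 454. In the replicate 2 list, col-2 had a summit at -437 bp with a signal of 97.1, nearer to ndc-80, which encodes a kinetochore protein. The last, col-54 on chromosome I, had a signal of 61.3 at +418 bp in replicate 2, in an intron and 28 bp into a tRNA-Arg gene, the same arrangement as in col-85. For col-2 and col-54 the replicate 1 ranked list held no summit within 150 bp.

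None of the 10 morphology collagens had a conservative summit within 500 bp, against 9.78% of all genes, or within 2000 bp, against 18.3%. With 10 genes, these shares correspond to few genes, so nothing particular to them is read from the counts of 0. The closest was sqt-1, a collagen with squat and roller alleles, whose nearest summit lay 2018 bp downstream of the start with a signal of 69.1, just past the 2000 bp limit. The nearest summits were at 2783 bp for bli-2, 3039 bp for dpy-10, -5104 bp for dpy-2, -8811 bp for sqt-3 and 9180 bp for rol-6. They were at -20042 bp for dpy-13, -23797 bp for dpy-17, -35905 bp for dpy-7 and 36045 bp for bli-1. A single exception arose in the other list for both replicates, where dpy-17 had a summit at +1598 bp with a signal of 113, nearer to the start of sax-2, where its position was -773 bp.

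Below the threshold, where most peaks have a q-value above 0.05, 9 of the 10 had a peak of the ranked list within 500 bp. The share was 68.1% of the 166 collagen genes and 55.0% of all genes, and nothing is read from a count over 10 genes. Signals of the 9 ran from 10.6 to 47.6 with a median of 25.0, against 33.2 over all genes with such a peak. The strongest of the 9 was at dpy-13, with a signal of 19.1 in replicate 1, of 27.0 in replicate 2 and of 47.6 for both. Next was dpy-10, a furrow collagen, with a signal of 38.8 at -349 bp for both and of 23.0 at -361 bp in replicate 1. The strongest replicate 2 peak in the window of dpy-10 was another, at 133 bp with a signal of 21.0. For sqt-1 the signal was 32.6 at 362 bp for both and 23.4 at 405 bp in replicate 1, and the strongest replicate 2 peak lay at 186 bp with a signal of 27.4, beyond the 150 bp used to match summits. Of the strut collagens, bli-1 had a signal of 23.5 and bli-2 of 16.6 in the list of both replicates, and dpy-17 had no ranked peak in the window. All 9 signals lay under the lowest of the 5 conservative summits, 75.0 at col-129.

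**Figure D4:**
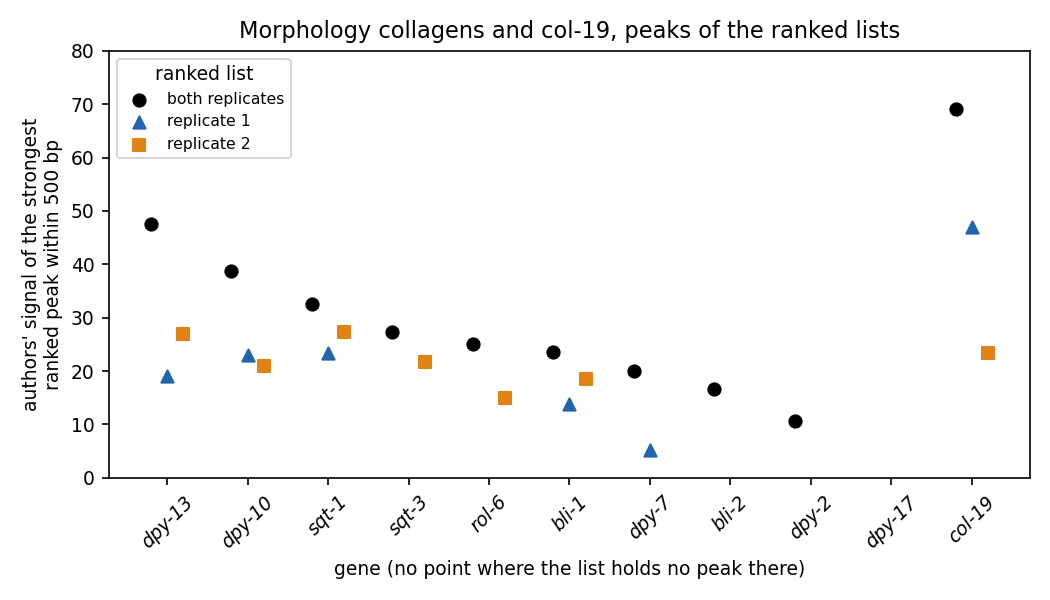
Signal of the strongest ranked peak within 500 bp of the 10 morphology collagens and col-19, in the ranked list of both replicates (black circles), of replicate 1 (blue triangles) and of replicate 2 (orange squares). The points of a gene can come from different peaks of its window, and a gene has no point where a list holds no peak there. Signals for both replicates reach 47.6 at dpy-13 among the morphology collagens and 69.1 at col-19.

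The ranked lists are not thresholded, and most of their peaks have a q-value above 0.05: 80082 of 84052 in the list of both replicates (95.3%), 46793 of 50642 in replicate 1 (92.4%) and 42287 of 46532 in replicate 2 (90.9%). A ranked peak is therefore not taken here as a site. Some peak of the ranked list lay within 500 bp of 113 collagen genes (68.1%, 95% Wilson interval 60.6 to 74.7%), against 55.0% of all genes. In the replicate 1 ranked list it was 78 (47.0%, interval 39.5 to 54.6%), against 40.4% of all genes, which lies inside the interval. In the replicate 2 ranked list it was 77 (46.4%, interval 39.0 to 54.0%), against 38.1% of all genes. Within 250 bp the share was 44.6% (interval 37.2 to 52.2%) in the list of both replicates, against 38.8% of all genes, and 27.1% in replicate 1, against 27.2%. Both replicates' ranked lists had a peak at 53 collagen genes (31.9%), against 27.2% of all genes. At 500 bp the share with a ranked peak was thus above that of all genes in the list of both replicates and in replicate 2. It was not separated from it in replicate 1 at that distance. At wider distances it was above in each of these lists. In replicate 1 it was 66.9% (interval 59.4 to 73.6%) within 1000 bp, against 53.6% of all genes. Within 2000 bp it was 80.7% in replicate 1 (interval 74.1 to 86.0%), against 68.3%, and 77.7% in replicate 2 (interval 70.8 to 83.4%), against 64.7%. In the list of both replicates it was 84.9% (interval 78.7 to 89.6%), against 71.2%.

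The median of the strongest ranked signal per gene was 27.5 over the 113 collagen genes, against 33.2 over 10985 genes. In replicate 1 it was 19.4 for collagen genes, against 22.2 for all genes, and in replicate 2 it was 23.1 for collagen genes, against 24.7 for all genes. Of the 113 collagen genes with a ranked peak, 5 (4.42%) had a thresholded one, against 17.8% of the 10985. In replicate 1 the same share was 3.85% of collagen genes, against 15.0% of all genes with a ranked peak, and in replicate 2 it was 6.49%, against 19.2%. Among the 161 collagen genes without a conservative summit, the strongest ranked signal was 80.8 at col-94, 10 bp before its start, above that of col-129 but with a score of 295.

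**Figure D5:**
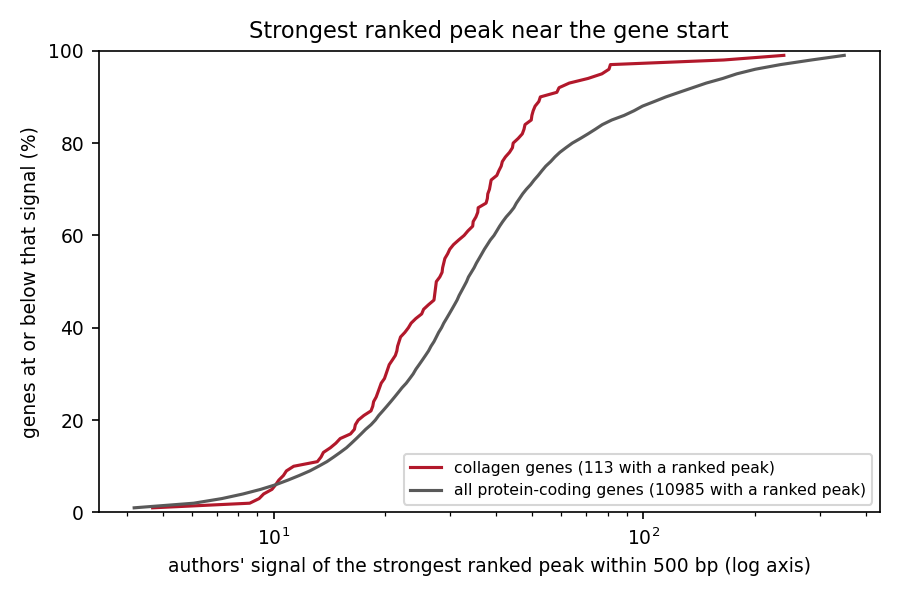
Cumulative share of genes (vertical, in %) by the signal of their strongest ranked peak within 500 bp (horizontal, log axis), for the 113 collagen genes with such a peak (red) and the 10985 protein-coding genes with one (grey). The medians are 27.5 for collagen genes and 33.2 for all, and the upper quartiles are 41.2 for collagen genes and 54.4 for all.

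The collagen genes were also set beside all genes on features the rule did not use. Their median length was 1220 bp, against 2027 bp for all genes, and they had a median of 2 coding exons, against 5. In the window from 250 bases before to 50 after the start, median G+C content was 38.0%, against 34.3% for all genes. TATAAA, the letters of the TATA box, was searched on both strands in that window and found in 111 collagen genes (66.9%), against 7579 of all genes (37.9%). Among collagen genes with a summit within 2000 bp it was found in 7 of 16 (43.8%), against 104 of the 150 without (69.3%). With only 16 genes and no interval, nothing is read from this difference. AGATAA, a form of the site of the GATA factors active in the epidermis, was found in 27.1% of collagen genes, against 21.2% of all genes. GAGAGA was found in 27.7% of collagen genes, against 21.8% of all genes. No interval was computed for these motif shares, and none of these matches shows that a factor binds there.

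Sequence uniqueness and clustering were measured beside the counts. Collagen genes resemble each other in sequence. At least 95% of the 32-base words in the 500 bp to either side of the start were unique in the genome for 121 collagen genes (72.9%), against 83.2% of all genes. Within those, 3 of 121 collagen genes had a conservative summit within 500 bp (2.48%), against 1757 of 16612 genes (10.6%). The part of sequence uniqueness in the lower share was not tested. Collagen genes also cluster, and 53 of the 166 (31.9%) had the start of another within 5000 bp, so they are not independent units.

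The genes that act with the collagens were described from lists. Of 11 further cuticle collagens without a col- symbol, 1 had a conservative summit within 500 bp (9.09%), near the 9.78% of all genes. This was bli-6, at -368 bp with a signal of 95.4 and with hrpf-2 nearer, where the ranked signals were 44.0 in replicate 1 and 50.3 in replicate 2. For sqt-2 the nearest summit lay at 1307 bp with a signal of 174. For dpy-9 it lay at -2600 bp, for dpy-5 at 3100 bp, for dpy-3 at 4726 bp, for dpy-14 at -5281 bp and for lon-3 at 7473 bp. For rol-1 it lay at -9383 bp, for dpy-8 at 10145 bp, for rol-8 at -14732 bp and for dpy-4 at 27104 bp. None of the 6 furrow collagens (dpy-2, dpy-3, dpy-7, dpy-8, dpy-9 and dpy-10) had one, and none did of 5 collagens listed as non-cuticle, among them col-99 and the genes emb-9 and let-2, which encode the type IV chains of basement membranes. With lists this short, the 9.78% of all genes corresponds to fewer than 1 gene in each.

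Enzymes and carriers that process collagen had a summit within 500 bp in 5 of 28 cases (17.9%), against 9.78% of all genes. The strongest were at sec-24.1, encoding a cargo adaptor of the COPII vesicle coat, with a signal of 312 and with the non-coding RNA gene F12F6.14 nearer to the summit, and at pdi-2, encoding a protein disulphide isomerase that is also a subunit of prolyl 4-hydroxylase, with 245. The others were at pdi-1 with 142, at mlt-7, encoding a peroxidase needed at the moult, with 78.8, and at the cyclophilin gene cyn-5 with 70.3. The replicate 1 list had 2 of the 28, against 6.06% of all genes, and the replicate 2 list 3, against 7.30% of all genes. The mlt-7 and cyn-5 summits were in neither replicate's list. No interval was computed for the 28, so the 17.9% is not set apart from the 9.78%. Of 50 other proteins of the cuticle and apical matrix, 1 had a summit within 500 bp (2.00%), against 9.78% of all genes. No interval was computed for the 50, so the 2.00% is not set apart from the 9.78%. The gene was the cuticlin-like cutl-23. Its signal was 108, and that summit lay 35 bp into a tRNA gene. A summit within 500 bp was found for 9.78% of all genes and for 3 of 25 regulators of epidermal and moult transcription. They were myrf-1, encoding a membrane-released transcription factor, with a signal of 338, mab-10, encoding a partner of LIN-29 at the change to adult, with 187, and lin-14, a gene of larval timing, with 168. A non-coding RNA gene started nearer to the summit at myrf-1 (F59B10.7) and at lin-14 (T25C12.8). The replicate 1 list had 4 of the 25 regulators, against 6.06% of all genes, and the replicate 2 list 3, against 7.30%. No interval was computed for the 25, so 3 of 25 is not set apart from the 9.78%. The hmg-1.1 gene itself, where the tag was inserted, had a summit at -230 bp with a signal of 342, nearer to the non-coding RNA gene Y48B6A.18.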

How the data were processed

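Chromatin immunoprecipitation peaks of both replicates were analysed as deposited lists on ce11. Per the deposited file listing, alignments of the replicates and of a control went into these lists. Aligner and peak caller: not given in the sources used here. The deposited score per peak is a scaled form of the IDR, with 830 as its lowest value in each thresholded list. The signal deposited by the authors has no stated scale. The −log10 of the q-value and of the global IDR were deposited by the authors too. The conservative list holds 4277 peaks, the other list for both replicates 4414, replicate 1 2613 and replicate 2 3082. No list holds read counts, so depth is unknown and intervals cover counting error only.

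Peak ends lay within the chromosome lengths of the reference. Genes came from Ensembl release 115, RNA gene products from RefSeq and bases from NCBI's assembly of that build. Summits in different lists were matched within 150 bp. Python 3.11.15, numpy 2.4.6, pandas 2.3.3 and statsmodels 0.14.6 were used, and the functions were tested on simulated data. No test between groups was made, since there is 1 group. Members and lists were chosen with earlier results of these data known. Named genes were every collagen gene with a summit within 500 bp in any thresholded list, those to 2000 bp that are the nearest start, up to 6 others by signal, the morphology collagens, col-19, the other cuticle collagens, and the marked members of the other lists, at most 6 of each. The remaining collagen genes in the ring were named after their values were seen, as were the ranked peak at col-94 and the genes named for their triplets. Alternatives were the other lists, stricter q-value and IDR limits, peaks above the median signal, other distances, any transcript start, 1 summit per merged region, summits at tRNA genes left out and col- genes alone. One sequence is not reported here.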

Additional observations from a re-analysis of the deposited data

How the results depend on the processing

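Within 500 bp, the count of 5 collagen genes stayed within 1.5 times of itself under 9 of 13 alternatives. Not all of these were free to change it. The list was already thresholded on the IDR, and the limit of 0.01 left the count at 5. With col- genes alone it could not move, since no morphology collagen was counted. The count was 3 with the peaks above the median signal, 2 at 250 bp and 8 at 1000 bp. Within 2000 bp, the count of 16 became 7 with those stronger peaks and 8 at 1000 bp. The count of 4 genes nearest to a summit became 2 with those stronger peaks and 2 at 250 bp. The median signal of 192 became 141 in the other list, 247 among those stronger peaks, 137 without summits at tRNA genes, 137 also without those at snRNA and snoRNA genes (an alternative chosen after seeing the data), 78.4 at 250 bp and 173 at 1000 bp. With each replicate's own list in place of the joint one, the counts ranged from 3 to 5 within 500 bp, was 10 with either within 2000 bp and ranged from 2 to 3 for the nearest start, and the median signal from 103 to 104 on those lists' own scales. A fixed distance and a stricter list change counts by construction. The cause of the other differences was not tested. No paired analysis was possible because there is 1 group. Read depth is unknown, so peaks missed for lack of depth cannot be told apart from sites without binding.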
